A study of Danio rerio with 5 samples.

Results

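Heat shock proteins (Hsp) and DnaJ co-chaperones were examined in RNA from whole zebrafish larvae at 2 weeks post-fertilization. The genes were all rows of the expression table whose symbol begins with hsp or dnaj, and 84 of the 21854 genes listed met that rule. Libraries labelled Mutant (3) were described as larvae homozygous for zbtb24mk22, a deletion allele made with TALENs in the gene of the zinc finger protein Zbtb24, and libraries labelled WT (2) as wild-type larvae. Each library was a pool of 10 larvae at the same age, so a value is an average over animals and tissues, and the labels do not say whether the pools came from separate clutches. In humans, mutation of ZBTB24 causes ICF syndrome, with immunodeficiency, unstable centromeres and facial anomalies. The table numbers the columns labelled WT 2 and 3, which do not match the titles of the samples, so these libraries are called by column.

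Molecular chaperones of these families keep proteins folded and refold or hand over those that are not. Hsp70 binds exposed stretches of client proteins, DnaJ proteins (also called Hsp40 or J proteins) deliver clients and stimulate the ATPase of Hsp70, and Hsp90 acts later on near-native clients such as kinases and steroid receptors. Small heat shock proteins hold unfolded clients without ATP. Some members, such as hspa8 and hsp90ab1, are transcribed in nearly every cell, while inducible copies are transcribed at a low rate until heat, proteotoxic or handling stress activates heat shock factor 1 (Hsf1), which also acts during normal development in some tissues. In zebrafish hsp70l is known to be transcribed in the developing lens without heat shock.

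Between 23796792 and 28601962 reads were assigned to genes per library. The targeted gene was checked first, and its transcripts were not reduced under the Mutant label: zbtb24 had 155, 175 and 282 scaled counts in the libraries labelled Mutant, against 127 and 77.3 in those labelled WT (log2 fold change 0.98, SE 0.28, adjusted p = 0.0642 in limma). The totals per gene do not show whether these transcripts carry the deletion, and directions are therefore given for libraries as labelled. The source label of the samples reads Fin, whereas transcripts of lens, retina, brain, liver and exocrine pancreas were counted in all 5 libraries. Of the 44 tissue markers found in the table, all were tested, and under the Mutant label 8 were called higher and 7 lower. Those called higher mark liver (3 of 4), epidermis and fin (3 of 6), heart (1 of 3) and blood (1 of 1), and those called lower mark lens (4 of 6), retina (2 of 6) and brain (1 of 6). Without Mutant replicate 2, where 0.345% of all genes were called, of these only alas2 (blood) and cryaa (lens) stayed called. The part of the tissue markers in the chaperone values was not tested.

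Of the 84 genes, 83 reached the minimum mean of 10 scaled counts and entered the test in limma. A scaled count is the number of reads of a gene divided by a size factor of its library. At an adjusted p under 0.05, 6 of the 83 fell in the libraries labelled Mutant (7.23%, against 2.68% of all 20307 genes tested) and 0 rose (against 3.32% of all genes, and against 0.704% for rises of at least 2-fold). Over all genes 674 were called higher and 544 lower, and with the libraries rescaled to equal totals 481 higher and 1103 lower, while the members called were then 0 higher and 9 lower. The 6 genes were the 4 inducible hsp70 copies hsp70.3, hsp70l, hsp70.2 and hsp70.1, then the small heat shock protein gene hspb1 and the cytosolic hsp90aa1.2. An unadjusted p under 0.05 was reached by 9 members with positive and 12 with negative fold changes (10.8% and 14.5%, against 13.1% and 13.6% of all genes), so at that level the members stood near the background. Over the members the median log2 fold change was 0.05, against -0.0014 over all genes. When the libraries were rescaled to equal totals the members' median was -0.03, against -0.09 over all genes. Its sign thus depended on the scaling, while it stayed above that of all genes. The plot of fold changes by role shows 4 genes far below all others.

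**Figure D1:**
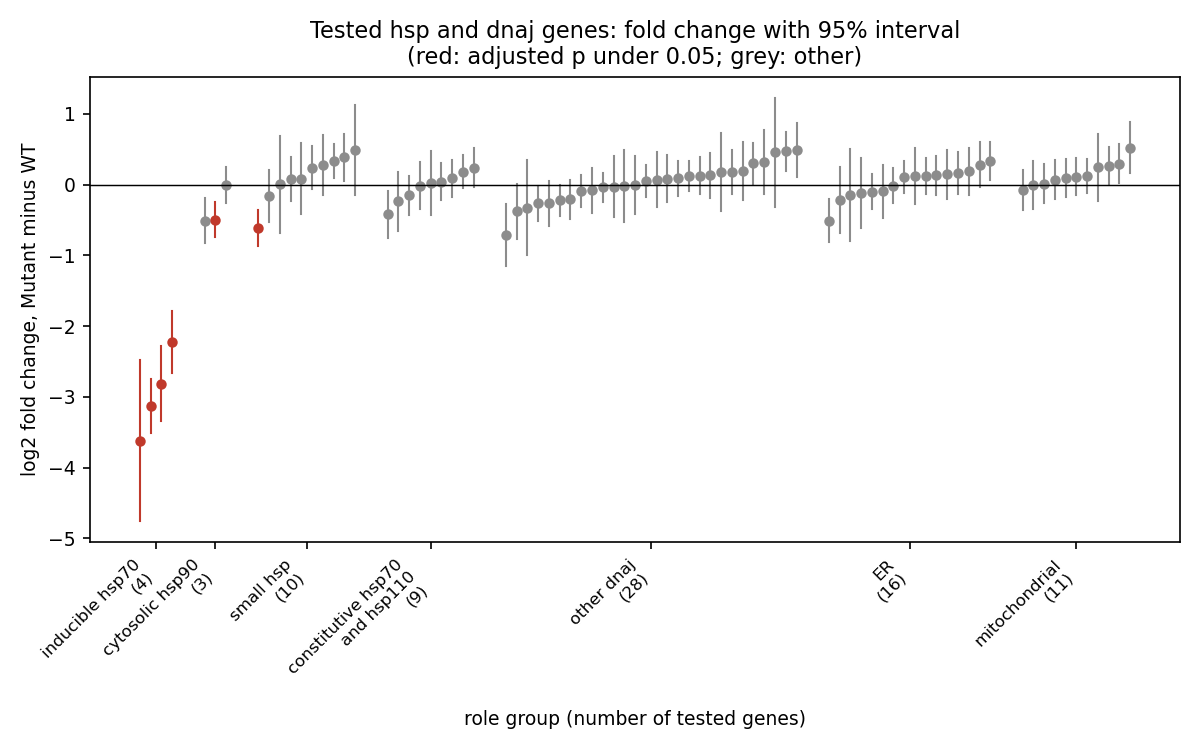
Log2 fold change (libraries labelled Mutant minus those labelled WT, y axis, no unit) of tested hsp and dnaj genes in 7 role groups along the x axis, with 95% intervals from limma as vertical lines; hspg2 and hspbap1 are not drawn. The 4 inducible hsp70 genes lie between -3.62 and -2.22, and the other 77 genes drawn lie between -0.72 and 0.52.

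Transcripts of the inducible genes with an hsp70 symbol were far less abundant in the libraries labelled Mutant, at 13.0% of the WT level in sum. The planned inducible group also listed hspa1b, but its row carried a clone name, so it is in neither the group nor the sum. It had 94, 76.4 and 68.7 scaled counts in the libraries labelled Mutant, against 74 and 88.9 in those labelled WT, and was not called. All 4 copies with an hsp70 symbol fell, with log2 fold changes from -3.62 (hsp70.1) to -2.22 (hsp70.3), and among the 544 genes called lower they ranked 1, 2, 4 and 5 by the size of the fall. The order of the first pair depended on the setting, since hsp70l fell more than hsp70.1 with a pseudocount of 8 (-3.06 for hsp70l and -2.99 for hsp70.1) and without Mutant replicate 2 (-3.01 and -2.98). Falls of at least 2-fold were called in 4 members (4.82%, against 0.355% of all genes), all of them these copies. These genes encode the cytosolic Hsp70 chaperones that are made on stress, and in a bulk library fewer cells transcribing them and less RNA per cell cannot be told apart.

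The copy hsp70l (ENSDARG00000055723, on chromosome 8) had 119.7, 107 and 159 scaled counts in the libraries labelled Mutant, against 1173 and 1059.6 in those labelled WT. Its mean was 128 ± 27.1 (SD, n = 3) in the libraries labelled Mutant and 1117 ± 80.4 (SD, n = 2) in those labelled WT, so that the libraries labelled Mutant held 11.5% of the WT level. All 3 libraries labelled Mutant lay far below both labelled WT, and the fall was -3.13 ± 0.17 (log2 fold change ± SE, adjusted p = 5.49e-05 in limma). The other 3 copies, hsp70.3, hsp70.2 and hsp70.1, are consecutive protein-coding genes on chromosome 3 in the RefSeq annotation of assembly GRCz12tu. Scaled counts of hsp70.3 (ENSDARG00000021924) were 59.4, 45.2 and 65.7 in the libraries labelled Mutant, against 268 and 263 in those labelled WT (log2 fold change -2.22, SE 0.19, adjusted p = 0.000989). For hsp70.2 (ENSDARG00000092362) there were 20.8, 18.3 and 27.3 scaled counts in the libraries labelled Mutant, against 157 and 162 in those labelled WT (log2 fold change -2.81, SE 0.24, adjusted p = 0.000817). The groups did not overlap for either gene, and within each group the libraries differed much less than the groups did.

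The remaining copy, hsp70.1 (ENSDARG00000029688), had 20.8, 4.31 and 17.2 scaled counts in the libraries labelled Mutant, against 159 and 153 in those labelled WT. Replicate 2 labelled Mutant stood lowest, with 4 reads where replicates 1 and 3 had 21 and 17, and the libraries labelled WT had 185 and 145. Its log2 fold change of -3.62 (SE 0.51, adjusted p = 0.0127) had the widest interval of the 4 copies (95% interval -4.76 to -2.48). This call was lost without the WT library of column 2 (log2 fold change -3.59, adjusted p = 0.0793), whereas hsp70l, hsp70.2 and hsp70.3 were called in every setting run.

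**Figure D2:**
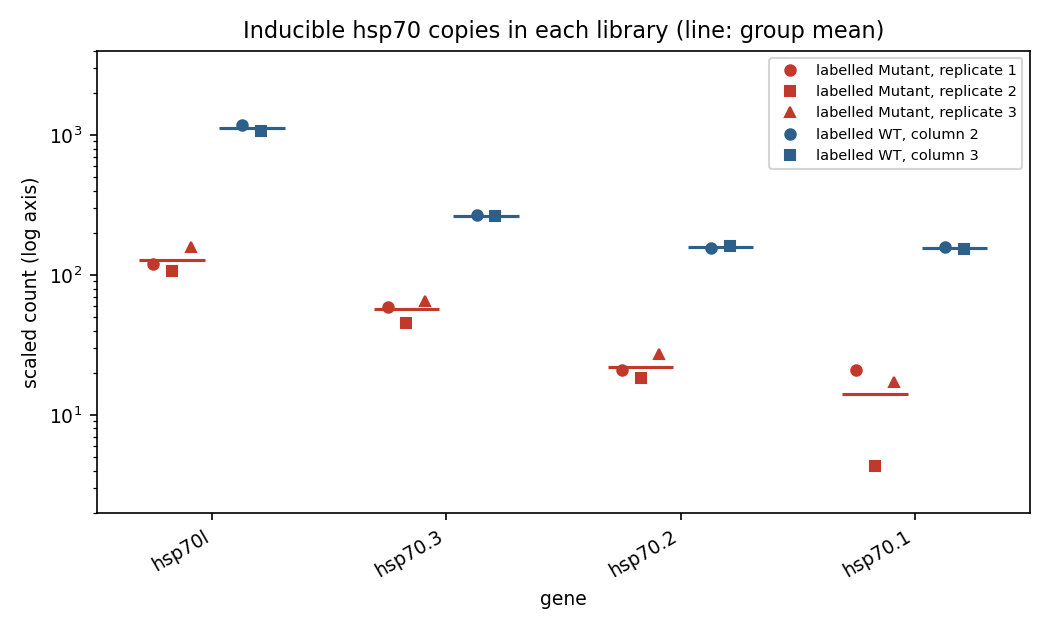
Scaled counts (y axis, log scale, reads divided by the library's size factor) of the 4 inducible hsp70 genes in each library, with the libraries labelled Mutant in red on the left of each pair and those labelled WT in blue on the right; horizontal lines are group means. For hsp70l the 3 libraries labelled Mutant sit between 107 and 159 and the libraries labelled WT at 1173 and 1059.6, and no gene has overlapping groups.

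Related copies can share reads, and a read that matches several copies may have been given to one of them or dropped, so the split between copies is uncertain. The copies were therefore also summed, although a read that was dropped is missing from the sum as well. The sums were 221, 174 and 269 scaled counts in the libraries labelled Mutant, against 1757 and 1638 in those labelled WT, which makes the Mutant mean 13.0% of the WT mean (12.3% with equal library totals, and 11.6% to 14.4% with any 1 library left out). The makeup of the sum also differed: hsp70.3 took 24.4% to 26.9% of it in the libraries labelled Mutant and 15.2% to 16.0% in those labelled WT. The copy hsp70l took 54.3% to 61.1% in the libraries labelled Mutant and 64.7% to 66.8% in those labelled WT. The shares of hsp70.2 overlapped (9.42% to 10.5% in the libraries labelled Mutant and 8.92% to 9.89% in those labelled WT), as did those of hsp70.1 (2.47% to 9.42% and 9.06% to 9.37%). These shares are of counted reads without a correction for transcript length, and the difference in makeup was not tested.

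Of the 3 cytosolic hsp90 genes, 1 fell and 0 rose. The pair hsp90aa1.1 and hsp90aa1.2, neighbours on chromosome 20, encode Hsp90 alpha, of which hsp90aa1.1 is known in zebrafish for folding myosin in skeletal muscle. The gene hsp90aa1.2 fell, with 746, 809 and 848 scaled counts in the libraries labelled Mutant, against 1210.4 and 1053 in those labelled WT (log2 fold change -0.50, SE 0.11, adjusted p = 0.0356). For hsp90aa1.1 the counts were 593, 651 and 662 in the libraries labelled Mutant, against 769 and 1061 in those labelled WT (log2 fold change -0.51, SE 0.14, adjusted p = 0.0637). Each library labelled Mutant lay below both labelled WT for both genes, as was so for 22.7% of all genes. The Mutant means were at 70.8% (hsp90aa1.2) and 69.4% (hsp90aa1.1) of the WT mean. The libraries labelled WT were further apart for hsp90aa1.1, which passed the test with equal library totals (adjusted p = 0.0338), where 7.80% of all genes were called. With the other pseudocounts and filters, or with any 1 library labelled Mutant left out, hsp90aa1.1 was not called. The call of hsp90aa1.2 was lost without the WT library of column 2 (adjusted p = 0.246), without Mutant replicate 1 (0.0812) and without Mutant replicate 2 (0.115). The constitutive hsp90ab1, which encodes Hsp90 beta, had 93874, 101061 and 103531 scaled counts in the libraries labelled Mutant, against 101578 and 98015 in those labelled WT. Its groups overlapped, with a log2 fold change of -0.01 (95% interval -0.26 to 0.24), and the difference between this gene and the alpha genes was not tested.

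Among the 10 genes grouped by symbol as small heat shock protein genes, 1 fell and 0 rose, and the median log2 fold change was 0.16. The group holds 2 different genes with the symbol hspb11. The one written HSPB11 (ENSDARG00000067777) had the highest fold change of the group (0.49), and whether it encodes a small heat shock protein was not checked. The one that fell was hspb1, which encodes the stress-induced Hsp27. It had 847, 723 and 873 scaled counts in the libraries labelled Mutant, against 1279 and 1197 in those labelled WT, and all 3 libraries labelled Mutant were below both labelled WT (log2 fold change -0.61, SE 0.11, adjusted p = 0.0235). That call was lost without the WT library of column 2 (adjusted p = 0.154) and without Mutant replicate 2 (adjusted p = 0.0914). Of the 10 genes, hspb1 and hspb15 had negative fold changes and 8 had positive ones, and in hspb2, hspb6, hspb7 and hspb8 the 3 libraries labelled Mutant all exceeded both labelled WT (4 of 10, against 22.3% of all genes). The gene with the highest counts of this group over all libraries, hspb8, a partner of Bag3 in clearing misfolded proteins, had 1183, 1306 and 1104 scaled counts in the libraries labelled Mutant, against 919 and 973 in those labelled WT (log2 fold change 0.34, SE 0.11, adjusted p = 0.0885). For hspb6, known in muscle, the counts were 451, 461 and 439 in the libraries labelled Mutant, against 407 and 292 in those labelled WT (log2 fold change 0.38, SE 0.15, adjusted p = 0.139). Neither passed the test. The 6 muscle markers were also above WT in every library labelled Mutant (log2 fold changes from 0.08 to 0.38, 0 called, summed scaled counts of 908665 to 970447 in the libraries labelled Mutant and 758967 to 765961 in those labelled WT). This depended on the scaling for ckma, whose log2 fold change was 0.08, and -0.00054 with equal library totals. The gene hsp90aa1.1, named above for skeletal muscle, was below WT in every library labelled Mutant (log2 fold change -0.51). The part of the muscle markers in the values of these chaperone genes was not tested.

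**Figure D3:**
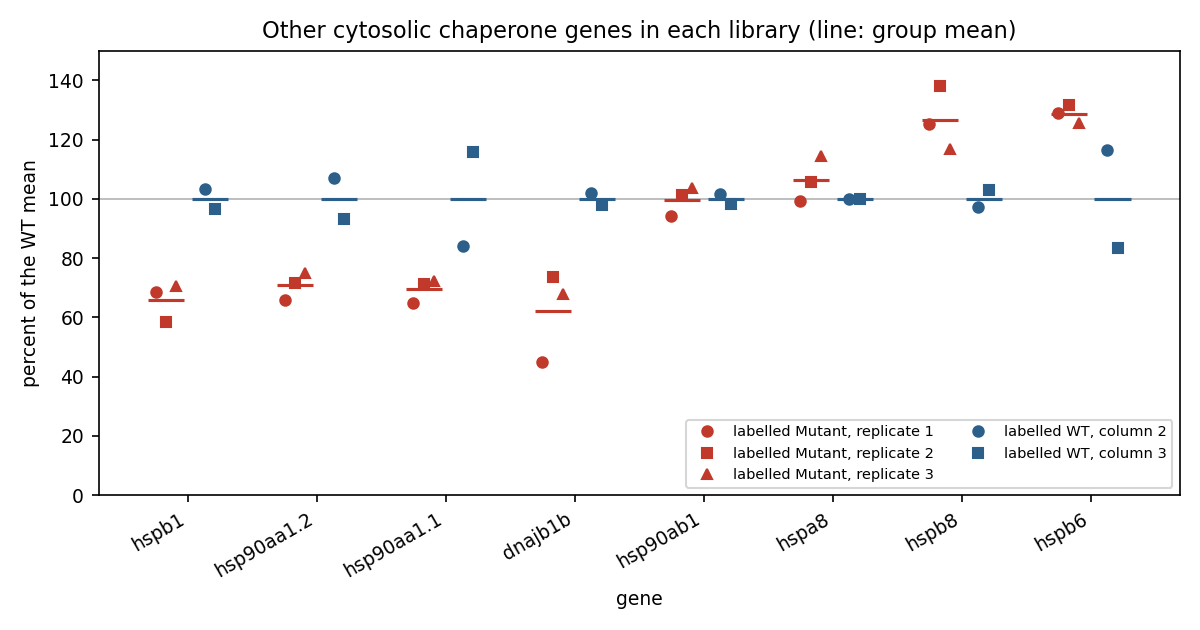
Scaled counts of 8 cytosolic chaperone genes in each library as a percent of the mean of the libraries labelled WT (y axis), with the libraries labelled Mutant in red on the left of each pair and those labelled WT in blue on the right; horizontal lines are group means. In hspb1, hsp90aa1.2, hsp90aa1.1 and dnajb1b all red points lie below both blue ones, hsp90ab1 and hspa8 overlap, and in hspb8 and hspb6 all red points lie above.

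Constitutive members of the Hsp70 and Hsp110 families did not pass the test. They were grouped with hspbp1, the gene of a protein that binds Hsp70 and is not of either family. None of these 9 genes was called (1 at an unadjusted p under 0.05 in limma). Their median log2 fold change was 0.03, which is the value of hspbp1. The main constitutive Hsp70, hspa8, had 108756, 115881 and 125245 scaled counts in the libraries labelled Mutant, against 109425 and 109593 in those labelled WT, and the groups overlapped (log2 fold change 0.09, 95% interval -0.17 to 0.35). The Hsp110 gene hspa4b, whose product serves Hsp70 as a nucleotide exchange factor, had 3940.1, 4162 and 4794 scaled counts in the libraries labelled Mutant, against 3673 and 3866 in those labelled WT (log2 fold change 0.18, 95% interval -0.05 to 0.42). The interval of hspa8 lies wholly above those of the 4 inducible copies. The gene below an unadjusted p of 0.05 was hspa12a, a distant relative of Hsp70, with 333, 251 and 272 scaled counts in the libraries labelled Mutant, against 398 and 361 in those labelled WT (log2 fold change -0.42, adjusted p = 0.113).

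None of the 28 DnaJ genes outside the endoplasmic reticulum (ER) and mitochondria was called. An unadjusted p under 0.05 in limma was reached by 6 of the 28, against 5418 of all 20307 genes. Fold changes were positive in 15 and negative in 13, with a median log2 fold change of 0.06. With equal library totals the median was -0.022, against -0.09 over all genes. The 2 with the highest counts were dnaja2, a co-chaperone of cytosolic Hsp70, and dnajc7, which binds both Hsp70 and Hsp90. Scaled counts of dnaja2 were 3939, 4348 and 4463 in the libraries labelled Mutant, against 3857 and 3977 in those labelled WT (log2 fold change 0.12, 95% interval -0.10 to 0.33). For dnajc7 the counts were 2452, 2643 and 2532 in the libraries labelled Mutant, against 2606 and 2616 in those labelled WT (log2 fold change -0.04, 95% interval -0.24 to 0.16). Both had overlapping groups. The lowest fold change of the group belonged to dnajb1b, one of a pair of zebrafish genes for Hsp40, the stress-inducible J protein that works with inducible Hsp70. It had 185, 304 and 281 scaled counts in the libraries labelled Mutant, against 421 and 404 in those labelled WT (log2 fold change -0.72, SE 0.20, adjusted p = 0.0606). All libraries labelled Mutant were below both labelled WT, as was so for 22.7% of all genes, and replicate 1 labelled Mutant was lowest. It passed the test with equal library totals (adjusted p = 0.0387) and in a fit with precision weights on whole reads (adjusted p = 0.0484, voom in limma). Its pair gene dnajb1a had 208, 203 and 169.7 scaled counts in the libraries labelled Mutant, against 187 and 177 in those labelled WT, and the groups overlapped (log2 fold change 0.09, 95% interval -0.25 to 0.42). The difference between the 2 genes was not tested.

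At the other end, dnajc5gb, a gene of the cysteine string protein family, had 739, 869.6 and 797 scaled counts in the libraries labelled Mutant, against 524 and 634 in those labelled WT (log2 fold change 0.47, adjusted p = 0.0542). The histone chaperone gene dnajc9, linked to dividing cells, had 614, 673 and 622 scaled counts in the libraries labelled Mutant, against 363 and 568 in those labelled WT (log2 fold change 0.48, adjusted p = 0.112). In both, the 3 libraries labelled Mutant all exceeded both labelled WT, as was so for 22.3% of all genes. The WT library of column 2 was the lower of the pair, and both genes were called only when the WT library of column 3 was left out.

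In mitochondria, where Hspa9 pulls proteins in through the inner membrane and the Hspd1 and Hspe1 chaperonin folds them, 0 of 11 genes were called. An unadjusted p under 0.05 in limma was reached by 3 of the 11, against 5418 of all 20307 genes. The median log2 fold change was 0.11. Scaled counts of hspa9 were 4944, 5985 and 5479 in the libraries labelled Mutant, against 4716 and 5307 in those labelled WT (log2 fold change 0.12, 95% interval -0.12 to 0.37). For hspd1 they were 2339, 2451 and 2682 in the libraries labelled Mutant, against 2083 and 2686 in those labelled WT (log2 fold change 0.07, 95% interval -0.20 to 0.35). Its neighbour on chromosome 9, hspe1, had 1239.8, 1445 and 1387 scaled counts in the libraries labelled Mutant, against 983 and 1241 in those labelled WT (log2 fold change 0.29, 95% interval 0.02 to 0.57). The groups overlapped for all 3 genes. The J protein gene dnajc28 had 129, 141 and 136 scaled counts in the libraries labelled Mutant, against 99 and 88.9 in those labelled WT (log2 fold change 0.52, adjusted p = 0.0786). Its groups did not overlap, with all libraries labelled Mutant above, as was so for 22.3% of all genes.

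In the ER, 0 of 16 tested genes were called, and the largest differences lay within the WT group. An unadjusted p under 0.05 in limma was reached by 2 of the 16, against 5418 of all 20307 genes. The gene of the main ER Hsp70, hspa5 (BiP), had 4038, 4296 and 4272 scaled counts in the libraries labelled Mutant, against 3219.7 and 6437 in those labelled WT. The WT library of column 3 thus held 2.0 times the level of that of column 2, and all 3 libraries labelled Mutant lay between them (log2 fold change -0.12, 95% interval -0.61 to 0.38). The ER Hsp90 gene, hsp90b1, showed the same order, with 5854, 6289.9 and 6783 scaled counts in the libraries labelled Mutant, against 4494 and 7459.8 in those labelled WT (log2 fold change 0.12, 95% interval -0.28 to 0.52, ratio of the WT libraries 1.66). Of the 16 genes, 11 were higher in column 3 than in column 2, with a median ratio of 0.20 on the log2 scale, against -0.01 over all genes and 9871 of 20307 genes higher. Leaving out the WT library of column 2 gave hspa5 a log2 fold change of -0.62, and leaving out that of column 3 gave 0.38, so these libraries set no direction for it. The other 5 were lower in column 3. Among these was dnajb12b, whose product sits in the ER membrane. It had 228, 199 and 209 scaled counts in the libraries labelled Mutant, against 320.2 and 284 in those labelled WT (log2 fold change -0.51, SE 0.14, adjusted p = 0.0568). It passed the test with equal library totals (adjusted p = 0.0349), where 7.80% of all genes were called, but not with the other pseudocounts and filters.

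**Figure D4:**
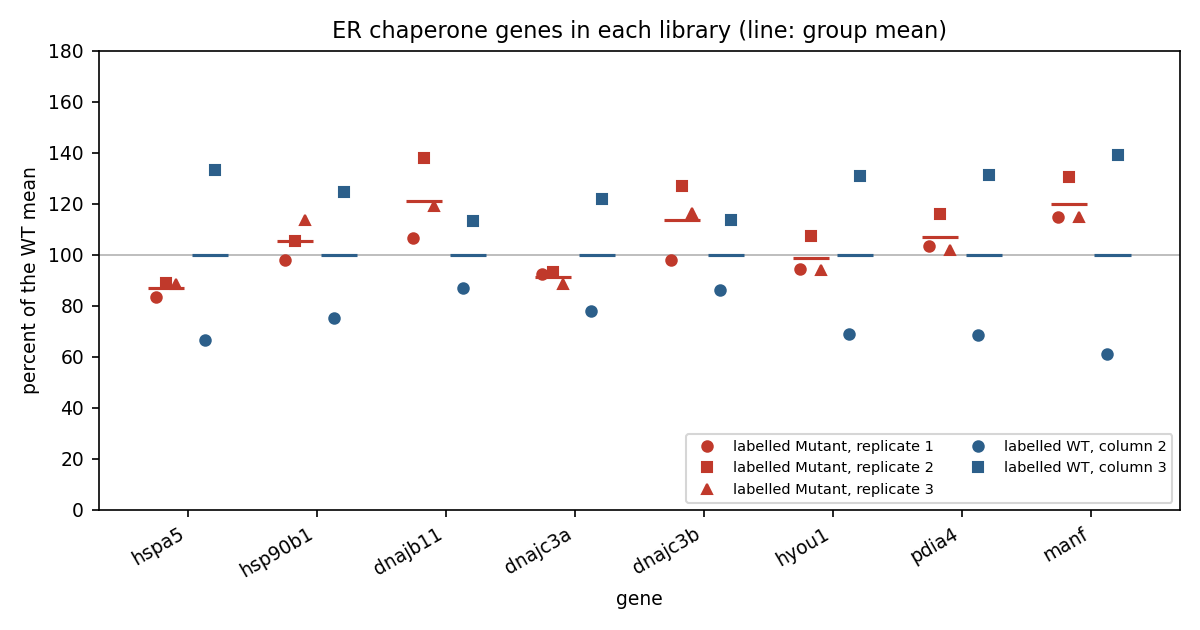
Scaled counts of 5 ER members and of the ER stress genes hyou1, pdia4 and manf in each library as a percent of the mean of the libraries labelled WT (y axis), with the libraries labelled Mutant in red on the left of each pair and those labelled WT in blue on the right; horizontal lines are group means. The blue square (column 3) is above the blue circle (column 2) in all 8 genes, and for hspa5 the 3 red points lie between them. The genes drawn are a selection, and of all 16 tested ER members 11 were higher in column 3.

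Genes that work with these chaperones were read from lists outside the name rule. ER stress genes repeated the spread between the WT libraries: 13 of 13 were higher in column 3, with a median ratio of 0.45 on the log2 scale, and 0 were called between the groups (1 at an unadjusted p under 0.05 in limma). The Hsp70 relative hyou1 had 1475, 1680.1 and 1471 scaled counts in the libraries labelled Mutant, against 1080.4 and 2047 in those labelled WT. The secreted ER protein gene manf had 463, 525 and 462 scaled counts in the libraries labelled Mutant, against 245 and 560.0 in those labelled WT. Several marker lists were also higher in column 3 than in column 2. They were exocrine pancreas (4 of 4 found markers, summed scaled counts of 259084 against 210175), liver (4 of 4, 126420.0 against 90309), intestine (2 of 2, 38156 against 33973), epidermis and fin (5 of 6, 276971 against 239338) and blood (1 of 1, 805 against 622), while 0 of 6 brain markers were. Their part in the spread of the ER genes was not tested.

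None of the 5 genes for heat shock factors and their binding protein was called. An unadjusted p under 0.05 in limma was reached by 2, hsf1 and hsbp1b, against 5418 of all 20307 genes. The binding protein gene hsbp1b had 1084, 1245 and 1093 scaled counts in the libraries labelled Mutant, against 881 and 927 in those labelled WT. All libraries labelled Mutant were above both labelled WT for this gene, as for 22.3% of all genes (log2 fold change 0.33, SE 0.11, adjusted p = 0.0885 in limma). The gene of the main stress regulator, hsf1, had 712, 676 and 730.4 scaled counts in the libraries labelled Mutant, against 884 and 802 in those labelled WT (log2 fold change -0.25, SE 0.11, adjusted p = 0.16). All libraries labelled Mutant were below both labelled WT for hsf1, as for 22.7% of all genes. For hsf2 the counts were 226, 262 and 289.9 in the libraries labelled Mutant, against 322 and 209 in those labelled WT, with overlap (log2 fold change -0.01, 95% interval -0.44 to 0.42). Of 19 heat shock response genes outside the name rule, 0 were called (5 at an unadjusted p under 0.05 in limma, against 5418 of all 20307 genes). Of the 19, 13 were positive and 6 negative, and the median log2 fold change was 0.04. With equal library totals it was -0.043, against -0.09 over all genes. Among them stip1, which bridges Hsp70 and Hsp90, had a log2 fold change of -0.34 (adjusted p = 0.124). The collagen chaperone gene serpinh1a (Hsp47) had 0.52 (adjusted p = 0.0663). None of the 8 genes of the TRiC chaperonin, which folds actin and tubulin, was called (0 at an unadjusted p under 0.05 in limma, log2 fold changes from -0.08 to 0.11), nor were 9 rows for mitochondrial partners (1 at an unadjusted p under 0.05).

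Several other lists held genes that were lower alongside the inducible hsp70 copies. Early response genes, which are transcribed within minutes of many stimuli, were lower in 8 of 14 tested and higher in 0, against 2.68% and 3.32% of all genes. All 14 had negative fold changes (median -0.49), as had 10195 of all 20307 genes tested, but the groups overlapped in 4. In atf3 (log2 fold change -0.00091) and junba (-0.0026) the Mutant means were 100.4% and 100.9% of the WT means. Among those called, ier2 had 321, 304 and 339 scaled counts in the libraries labelled Mutant, against 597 and 519 in those labelled WT (log2 fold change -0.79, adjusted p = 0.0158). The gene fosl1a had 161, 159 and 181 scaled counts in the libraries labelled Mutant, against 393 and 276 in those labelled WT (log2 fold change -0.98, adjusted p = 0.0209). The other 6 called were btg2, fosab, fosb, dusp1, fosaa and egr3. Lens markers were lower in 4 of 6 (against the same 2.68% of all genes), with summed scaled counts of 46825 to 50841 in the libraries labelled Mutant and 64301 to 66112 in those labelled WT, and none was at 0. The alpha crystallin gene cryaa, itself a small heat shock protein relative, had 1464, 1727 and 1367 scaled counts in the libraries labelled Mutant, against 2873 and 3038 in those labelled WT (log2 fold change -0.97, SE 0.12, adjusted p = 0.00577). Retina markers were lower in 2 of 6, and in all 6 the libraries labelled Mutant lay below both labelled WT (22.7% of all genes), with summed scaled counts of 52621 to 68416 in the libraries labelled Mutant and 79960.4 to 81977 in those labelled WT. Brain markers were lower in 1 of 6 and did not overlap in 3 of 6, with all libraries labelled Mutant below. The other 3 overlapped, and 2 of these had positive fold changes (gfap and mbpa, each 0.13 on the log2 scale). On the log2 scale the medians of these lists were -0.49 (early response), -0.49 (lens), -0.51 (retina) and -0.20 (brain), while the ratio of the inducible hsp70 sums was -2.94. Calls in the early response and lens lists depended on single libraries. Without Mutant replicate 2, 0 early response genes were called (0.345% of all genes), and without Mutant replicate 1 there were 4 (2.15% of all genes). Without Mutant replicate 3 there were 7 (5.57% of all genes). Lens calls ranged from 1 to 2 with any 1 library labelled Mutant left out, and cryaa was called in every setting. The retina calls, gnat2 and pde6b, and the brain call, snap25b, were also lost without Mutant replicate 2 (adjusted p = 0.0868, 0.0764 and 0.0970 in limma). Leaving out a library labelled WT leaves 1, so only fold changes are given for that. Without the WT library of column 2 they were -0.69 for ier2, -0.72 for fosl1a, -0.76 for gnat2, -0.67 for pde6b and -0.45 for snap25b on the log2 scale. The part of the genes in these lists, and of the tissues they mark, in the hsp70 values was not tested.

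Some Hsp70 relatives carried clone names in the table and so fell outside the name rule. They were named from a table of gene names after their values had been seen. The gene now called hspa12a.1 (si:ch211-250m6.4, ENSDARG00000068869) rose, with 89.1, 71 and 54.6 scaled counts in the libraries labelled Mutant, against 12.1 and 16.9 in those labelled WT (log2 fold change 2.22, SE 0.28, adjusted p = 0.00817). Its relative hspa12a.2 (si:ch211-250m6.2, ENSDARG00000096726) had 16.8, 14 and 26.3 scaled counts in the libraries labelled Mutant, against 2.58 and 5.29 in those labelled WT (3 and 5 reads in the libraries labelled WT), at 2.03 ± 0.44 (log2 fold change ± SE, adjusted p = 0.0335). It reached the minimum mean of 10 only through the libraries labelled Mutant, where it was high, so this call is no support for a difference, and without Mutant replicate 3 it fell below the minimum and was not tested. Without the WT library of column 2 both calls were lost (adjusted p = 0.0548 and 0.222), and that of hspa12a.2 was lost also without Mutant replicate 1 (0.0613) and without Mutant replicate 2 (0.101). A further Hsp70 gene, listed in the planned inducible group and now called hspa1b (si:ch211-199o1.2), had 94, 76.4 and 68.7 scaled counts in the libraries labelled Mutant, against 74 and 88.9 in those labelled WT, with overlapping groups (log2 fold change -0.04, 95% interval -0.49 to 0.42). A fall was thus called for the 4 copies that carry an hsp70 symbol, and hspa1b was not called.

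**Figure D5:**
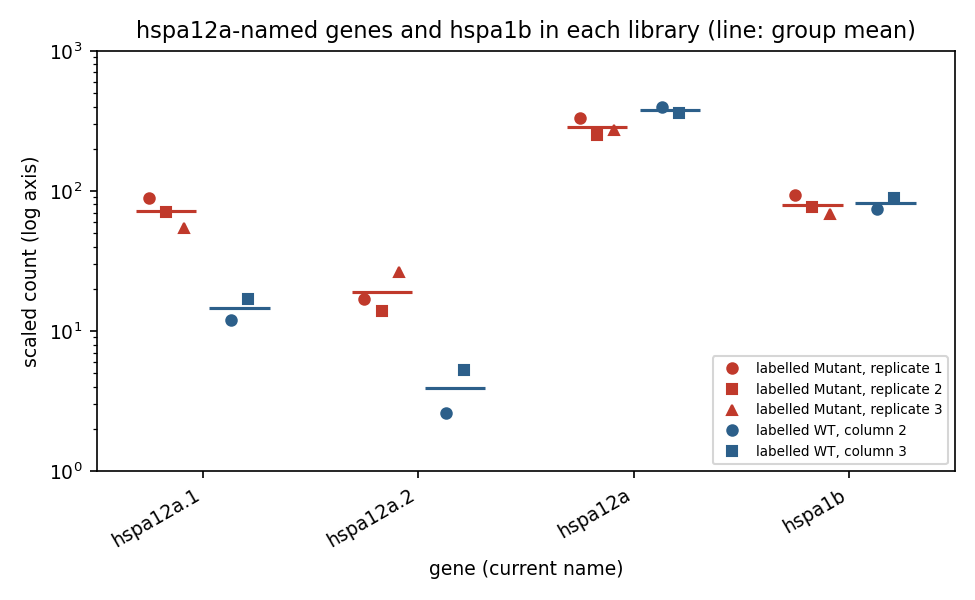
Scaled counts (y axis, log scale) of 4 Hsp70 relatives in each library under their current names, with the libraries labelled Mutant in red on the left of each pair and those labelled WT in blue on the right; horizontal lines are group means. For hspa12a.1 and hspa12a.2 all red points lie above both blue ones, for hspa12a all lie below, and hspa1b overlaps.

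The remaining genes of the name rule are accounted for by counts. Of the 83 tested, 16 had every library labelled Mutant below both labelled WT and 16 had every one above (19.3% each, against 22.7% and 22.3% of all genes), and 51 overlapped. The untested gene was a second row named dnajb9b, with a mean scaled count under 10. Not chaperones despite their symbols were hspg2 and hspbap1. The gene hspg2, which encodes the basement membrane proteoglycan perlecan, had 3933, 2835 and 3289 scaled counts in the libraries labelled Mutant, against 3375 and 3482 in those labelled WT (log2 fold change -0.04, 95% interval -0.34 to 0.25). For hspbap1, the gene of a protein that binds Hspb1, the counts were 103, 97.9 and 131 in the libraries labelled Mutant, against 153 and 114 in those labelled WT (log2 fold change -0.27, 95% interval -0.71 to 0.17). The number of calls depended on single libraries. Without Mutant replicates 1, 2 and 3 there were 5, 4 and 6 members called, all lower, against 2.15%, 0.345% and 5.57% of all genes. Where 1 library labelled WT was left, only fold changes are given here. Without the WT library of column 2, hsp70l, hsp70.2 and hsp70.3 had log2 fold changes of -3.06, -2.84 and -2.21. Without that of column 3 they had -3.20, -2.79 and -2.24. With any 1 library left out, the fold changes reached up to 0.48 for dnajc10, 0.61 for dnajc5gb and 0.81 for dnajc9. They reached up to 0.49 for hsp90b1 and 0.46 for hspe1.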

How the data were processed

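Poly(A) RNA of pooled whole larvae was sequenced as paired ends with a stranded kit. Per the labels and methods, the authors aligned reads to danRer7, counted them per gene with HTSeq 0.5.3 and scaled the counts with DESeq; whether counting used strand is not given in the sources used here, so genes that overlap another, antisense ones included, are uncertain. Each deposited value is a signal for a gene in a library: after subtracting 1, 100% of values in each library were whole multiples of the value of 1 read (within 0.05 read), and this difference is the scaled count. Libraries were grouped by their labels. log2(scaled count + 1) was tested in limma (3.58.1, under R 4.3.3), with a trend on mean level, two-sided, for genes with a mean of at least 10, with Benjamini-Hochberg adjustment over all 20307 genes. Fold changes are on that scale and understate those of low genes. P-values measure only the spread between these libraries. The step was tested on simulated data. Alternatives were pseudocounts of 0.5 and 8, no filter, a minimum mean of 50, equal library totals, each library left out and, chosen after seeing the data, voom in limma.

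The members and lists were chosen with earlier results of these data known. Named by rule were called members, inducible hsp70, cytosolic hsp90, members changed at least 2-fold, the 2 genes with the highest counts in each role group, called partner genes, hsf1, hsf2 and zbtb24. All other named genes were chosen after their values were seen. Of 84 gene identifiers, 83 matched a table of gene names; RefSeq GRCz12tu, another build, gave only chromosomes and neighbours. Promoter and protein sequences were not used here.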

Additional observations from a re-analysis of the deposited data

How the results depend on the processing

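Pseudocounts, filters and voom in limma changed no call among the members other than dnajb1b (log2 fold change -0.72 with voom, called). A check by gene covered 60 genes, many of them named in the text. In settings other than a left-out library, 352 of their 358 values kept direction and side of the threshold. Equal library totals moved the median of all genes to -0.085 and the number called lower over all genes to 1103. The medians were then 0.076 for small hsp, -0.022 for other dnaj, 0.030 for ER, 0.027 for mitochondrial genes and -0.031 for all members, and 0.078 for ER stress genes, -0.043 for heat shock response genes, -0.041 for mitochondrial partners and -0.57 for early response genes. Among the 60 genes, the log2 fold changes of hspd1 (-0.012) and hyou1 (-0.035) turned negative, and dnajb1b (-0.80), dnajb12b (-0.59) and hsp90aa1.1 (-0.59) were called. The whole table shifts under this setting; any further cause was not tested.

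With any 1 library left out, the calls over all genes ranged from 31 to 1317 higher and from 13 to 1111 lower, and members from 0 to 5 higher and 3 to 6 lower. Where 1 library labelled WT was left, it was assumed to vary like the others. Medians ranged from -0.54 to -0.28 for cytosolic hsp90, 0.15 to 0.30 for small hsp, -0.18 to 0.090 for constitutive hsp70 and hsp110, -0.0053 to 0.12 for other dnaj, -0.0052 to 0.20 for ER genes, -0.00093 to 0.090 for all members, -0.0039 to 0.0011 for all genes, -0.20 to 0.087 for heat shock factors, -0.019 to 0.12 for heat shock response genes, -0.019 to 0.094 for TRiC, 0.0053 to 0.091 for mitochondrial partners, -0.032 to 0.46 for ER stress genes and -0.55 to -0.46 for early response genes. Among the 60 genes checked, directions turned for hsp90b1 (-0.24 to 0.49), hsp90ab1 (-0.035 to 0.036), hspa5 (-0.62 to 0.38), hspd1 (-0.11 to 0.26), hspg2 (-0.17 to 0.069), DNAJA4 (-0.92 to 0.27), hsf2 (-0.32 to 0.30), hyou1 (-0.41 to 0.51), pdia4 (-0.29 to 0.64), manf (-0.21 to 0.97) and the hspa1b row (-0.17 to 0.093), none of them called with all libraries. Genes of the text outside these 60 that also turned included atf3 (-0.21 to 0.21), junba (-0.14 to 0.12), gfap (-0.0016 to 0.27) and hspb15 (-0.38 to 0.047). Others were hspb3 (-0.40 to 0.41), ahsa1a (-0.76 to 0.59) and serpinh1b (-0.11 to 1.07), and none of these was called with all libraries.

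No paired analysis was possible because the WT columns carry the numbers 2 and 3 while the WT titles carry others, so numbers could not be matched to the libraries labelled Mutant. The planned count tests on recovered reads were not run, nor were the planned promoter and protein descriptions. With 2 libraries against 3, small changes of genes with few reads, such as hsp70.1 with 4 to 21 reads in the libraries labelled Mutant, are not resolved.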

Other observations

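Some chaperone transcripts also differed between the 2 libraries labelled WT. Over the members as a whole, 44 of 83 tested were higher in column 3, near the background of 9871 of 20307 genes. Their median ratio of column 3 to column 2 was 0.0080 on the log2 scale, against -0.01 over all genes. The ratio was 2.30 for DNAJA4, a J protein gene induced by heat in mammals, 2.0 for hspa5, 1.78 for hspb3 (31 and 45 reads) and 1.66 for hsp90b1. It lay below 1 in other members, such as HSPB11 (0.64) and hspb9 (0.67). Scaled counts of DNAJA4 were 87.1, 81.8 and 71.7 in the libraries labelled Mutant, against 66.3 and 152 in those labelled WT, so the WT library of column 3 stood above the other 4. Outside the name rule the ratio was 2.60 for ahsa1a, an activator of the Hsp90 ATPase (36 and 76 reads), and 2.27 for serpinh1b, the collagen chaperone. Of the 19 heat shock response genes 14 were higher in column 3, against 9871 of 20307 over all genes. The 4 inducible hsp70 copies did not share this, with ratios from 0.90 for hsp70l to 1.03 for hsp70.2, nor did the small heat shock genes, of which 2 of 10 were higher in column 3. No test within a pair of libraries is possible.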
